A study of Mus musculus with 9 samples.

Results

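The type I interferon antiviral effectors are genes whose products block steps of virus replication and whose transcription is raised by interferon. The group was defined by a list of 41 gene symbols, and all 41 were found among the 55418 symbols of the count table. They fall into 6 classes by role: 7 Ifit and Ifitm genes, 6 genes of the oligoadenylate synthetase family, 10 other antiviral effectors, 9 genes of the Isg15 system and other ubiquitin ligases, 4 Parp genes and 5 other interferon-induced genes. RNA-seq was run on 66cl4, a murine cell line labelled as triple negative breast cancer. One group carried the hairpin shEya3_KD1, another the hairpin shEya3_KD2, both directed at Eya3, and the third carried a scrambled hairpin and is called SCR, with 3 libraries in each group. All cells of the 3 groups had been transduced and were kept under puromycin, and whether a group was a pool or a clone was not stated. The labels call the libraries biological replicates without describing separate cultures, so the p-values measure the spread between these libraries.

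Type I interferons bind the receptor of Ifnar1 and Ifnar2, whose kinases Jak1 and Tyk2 phosphorylate transcription factors that include Stat2. With Irf9 these form a complex that enters the nucleus and binds the interferon-stimulated response element, a pair of GAAA blocks, in the promoters of the effector genes. Cells that sense foreign or misplaced nucleic acid through Ddx58 (RIG-I), Ifih1 (MDA5) or Cgas make interferon, and some tumour cell lines keep a low level of this programme without infection. Eya3 is a transcriptional coactivator that also has phosphatase activity.

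The response element was searched in the 250 bases upstream of each annotated start, as 2 copies of GAAA with 2 bases between them, on both strands and with overlapping matches allowed. The promoter sequences were those of RefSeq on GRCm38.p6, and 31 of the 41 genes matched an entry. The element was present in 11 of these 31 promoters (35.5%), against 925 of 26994 other genes (3.43%). The 11 genes were Bst2, Ddx60, Ifit1, Ifit3, Ifit3b, Ifitm2, Isg15, Oas1a, Oas3, Rsad2 and Trim30a. A longer form, with CT after the second GAAA, was present in 7 promoters (22.6%) against 62 of the other genes (0.230%). A match describes the letters only, and their absence from this window describes nothing about binding. Stretches of 80 bases are shown for genes that the results turn on: Ifit1, the Ifit3 pair, Isg15, Oas1a, Oas3, Rsad2 and Ddx60, with Ifitm2 as the gene that holds a match and passed no test. Each is written 5′ to 3′ on the strand of the gene, and the capitals mark every match, which reads as TTTC where it lies on the other strand.
Ifit1, chr19:34640765-34640844, plus strand: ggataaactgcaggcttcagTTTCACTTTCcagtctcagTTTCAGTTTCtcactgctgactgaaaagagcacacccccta
Ifit3, chr19:34583353-34583432, plus strand: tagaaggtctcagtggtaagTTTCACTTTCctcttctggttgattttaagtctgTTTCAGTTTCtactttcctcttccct
Ifit3b, chr19:34607749-34607828, plus strand: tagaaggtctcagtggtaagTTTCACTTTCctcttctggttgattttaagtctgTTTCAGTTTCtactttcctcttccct
Isg15, chr4:156200837-156200916, minus strand: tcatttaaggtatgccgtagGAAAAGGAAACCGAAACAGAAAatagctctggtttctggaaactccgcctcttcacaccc
Oas1a, chr5:120907526-120907605, minus strand: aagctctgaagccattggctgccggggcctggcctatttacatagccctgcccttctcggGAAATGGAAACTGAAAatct
Oas3, chr5:120777675-120777754, minus strand: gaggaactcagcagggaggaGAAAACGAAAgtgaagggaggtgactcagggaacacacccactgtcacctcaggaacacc
Rsad2, chr12:26456513-26456592, minus strand: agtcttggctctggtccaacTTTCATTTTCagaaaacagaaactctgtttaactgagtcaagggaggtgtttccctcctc
Ddx60, chr8:61928007-61928086, plus strand: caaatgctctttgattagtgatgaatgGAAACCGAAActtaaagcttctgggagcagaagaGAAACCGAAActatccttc
Ifitm2, chr7:140955962-140956041, minus strand: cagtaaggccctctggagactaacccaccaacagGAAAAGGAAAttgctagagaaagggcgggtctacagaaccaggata

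The stretches of Ifit3 and Ifit3b, neighbours on chromosome 19, were the same at all 80 bases. Isg15 held 3 overlapping matches in a run, and Oas1a held 2 that ended close to the start site. Ifit1 and Ddx60 held 2 separate matches each.

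Libraries held 27758862 to 52691960 counts, and mitochondrial transcripts took 1.39% to 2.47% of them. Eya3 was at 24.9, 21.5 and 22.9 CPM (counts scaled to a common library size) in shEya3_KD1 and at 38.7, 39.8 and 34.1 CPM in shEya3_KD2, against 68.1, 79.0 and 71.7 CPM in SCR, so both hairpin groups lay below the SCR libraries. The library of shEya3_KD2 replicate 2, the shallowest, stood apart from the other 2 of its group in the effector genes. The median log2 fold changes, and the values of some genes, are given with and without it. Of 10 epithelial markers, 6 were below 1 CPM in every library, with Epcam and Cldn7 at 0, while Krt8 was high. The epithelial markers summed to 1225 to 1374 CPM in shEya3_KD1 and 766 to 870 CPM in shEya3_KD2, against 659 to 698 CPM in SCR, most of it Krt8. Of 14 macrophage markers 10 were below 1 CPM in every library, with C1qa and C1qc at 0. The list summed to 35.0 to 39.5 CPM in shEya3_KD1 and 34.2 to 40.6 CPM in shEya3_KD2, against 80.1 to 81.9 CPM in SCR. Lyz2 was its highest gene. The 6 tested macrophage markers went both ways, with log2 fold changes against SCR of -4.29 to 3.15 in shEya3_KD1 and -3.85 to 3.58 in shEya3_KD2. Of 8 dendritic cell markers other than Bst2, all but Tcf4 were below 1 CPM, and their sum was 55.3 to 65.0 CPM in shEya3_KD1 and 98.8 to 132 CPM in shEya3_KD2, against 71.4 to 74.0 CPM in SCR. The fibroblast list summed to 53.7 to 58.7, 30.7 to 44.8 and 28.8 to 35.8 CPM in shEya3_KD1, shEya3_KD2 and SCR, the lymphocyte list to at most 1.22 CPM and the endothelial list to at most 4.35 CPM in any library. The part of these differences in the results was not tested, and in bulk RNA a change in the number of expressing cells and a change in RNA per cell cannot be told apart.

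The effector genes moved in opposite directions under the 2 hairpins. In shEya3_KD1 most were below SCR, and in shEya3_KD2 nearly all were above it. Summed over the genes tested, they reached 948, 971 and 897 CPM in shEya3_KD1 and 4210, 6363 and 4343 CPM in shEya3_KD2, against 1931, 2032 and 1977 CPM in SCR. They took 0.0904% to 0.0974% of all counts in shEya3_KD1 and 0.410% to 0.621% in shEya3_KD2, against 0.197% to 0.206% in SCR. The 3 groups did not overlap in this sum, and shEya3_KD2 replicate 2 was the highest library.

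Of the 41 genes, 40 had enough counts to be tested, in a fit over 15914 genes. Ifitm1, a membrane protein of the Ifitm family, was the exception, at no more than 0.0739 CPM in any library. In shEya3_KD1 minus SCR, 34 genes fell and 1 rose at an adjusted p of 0.05 by the quasi-likelihood test of edgeR, adjusted over all genes after Benjamini and Hochberg, where 26.2% of all genes tested fell and 24.1% rose. In shEya3_KD2 minus SCR, 39 rose and none fell, where 23.0% of all genes rose and 22.3% fell. In shEya3_KD2 minus shEya3_KD1, 39 rose and none fell, where 27% of all genes rose and 22.5% fell. The median log2 fold changes were -1.07, 1.54 and 2.68 in these comparisons, against 0.01, -0.0044 and 0.0030 over all genes tested. At 2-fold or more, 22 genes fell in shEya3_KD1 against SCR, 28 rose in shEya3_KD2 against SCR and 37 were higher in shEya3_KD2 than in shEya3_KD1. Over all 15914 genes tested, the matching counts were 1517, 536 and 1154. The first 2 comparisons share the SCR libraries.

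By their calls, 34 genes fell in shEya3_KD1 and rose in shEya3_KD2 against SCR. Over all genes tested, 26.2% fell in shEya3_KD1 and 23.0% rose in shEya3_KD2. The share of all genes that did both was not counted. Ifit1, Isg20, Ddx60 and Dtx3l passed the test only in the comparisons with shEya3_KD2, Ifit2 rose in both hairpin groups, and Ifitm2 passed in none. The libraries of shEya3_KD1 lay entirely below those of SCR for 35 genes and above them for 1, and those of shEya3_KD2 entirely above SCR for 39. How many of all genes tested separated in this way was not counted, so these numbers have no share to stand beside. Without shEya3_KD2 replicate 2, 39 genes still rose in shEya3_KD2 against SCR and the median log2 fold changes were -1.07, 1.32 and 2.44. The genes with the response element had a median log2 fold change of 1.96 in shEya3_KD2 minus SCR (11 genes, 10 rose), and those with a promoter entry but no match had 1.39 (19 tested, 19 rose). In shEya3_KD1 minus SCR the medians were -1.01 with the element and -0.98 without it. Mx1, Mx2, Oas1b, Oas2, Usp18, Ifi27, Parp9, Parp10, Parp14 and Rtp4 had no promoter entry and are in neither set. Ifit3 and Ifit3b, whose stretches were the same, both count among the genes with the element. Whether the sets differ was not tested.

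**Figure D1:**
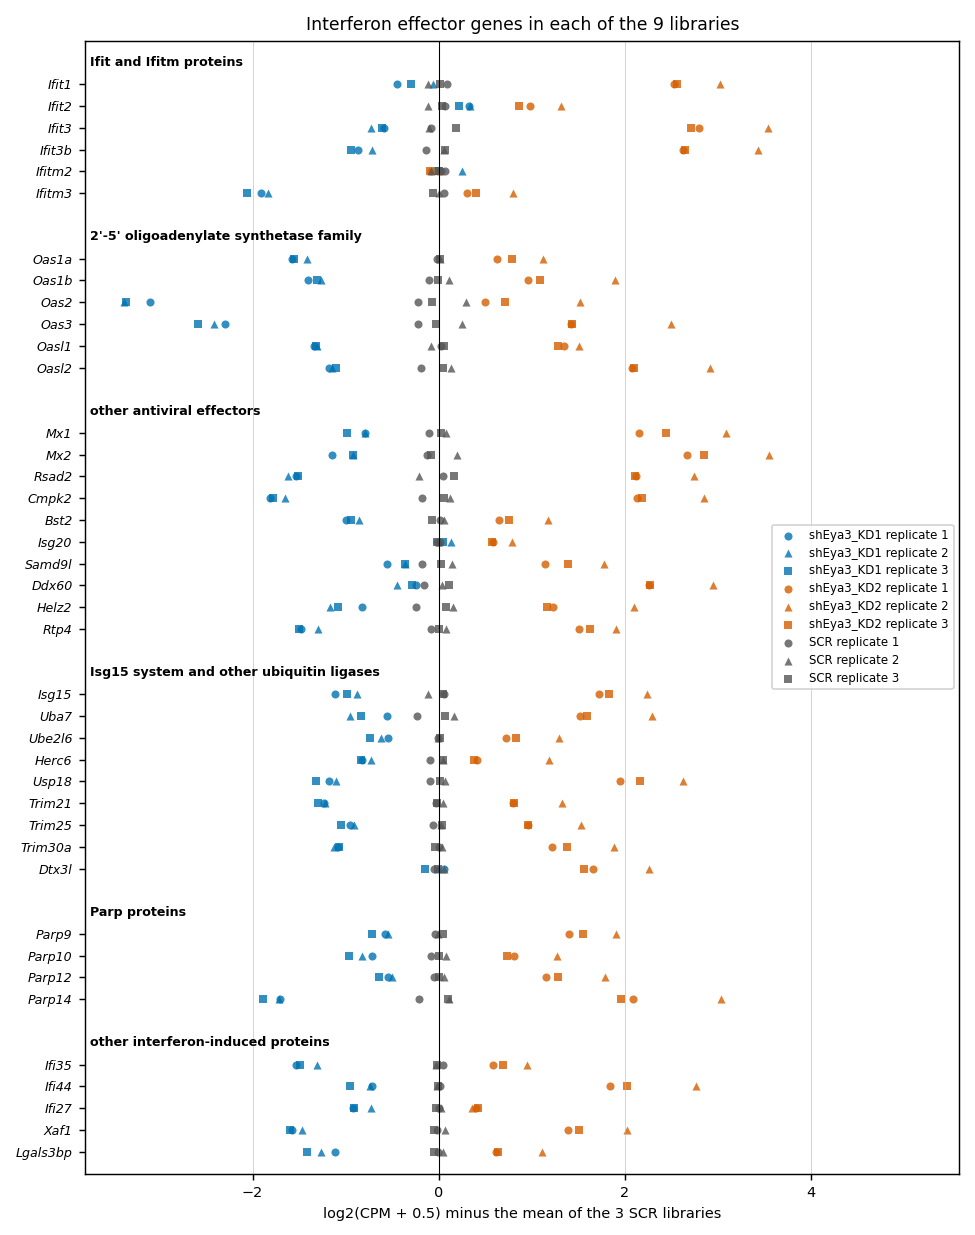
Each point is 1 library: the log2(CPM + 0.5) of a gene minus the mean of the 3 SCR libraries, for the 40 genes tested, in order of role. The shEya3_KD1 points lie left of 0 for most genes, the shEya3_KD2 points right of 0, and the shEya3_KD2 triangle (replicate 2) is right of the other 2 shEya3_KD2 points in 39 of 40 genes.

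The Ifit proteins bind viral RNA and restrain its translation, and the Ifitm proteins block the fusion of enveloped viruses with cell membranes. Of the 6 tested, 3 fell and 1 rose in shEya3_KD1 against SCR, and 5 rose in shEya3_KD2 against SCR. Ifitm3, which acts in endosomes, was at 83.2, 87.5 and 74.7 CPM in shEya3_KD1 and 385, 546 and 415 CPM in shEya3_KD2, against 326, 313 and 300 CPM in SCR. All 3 groups were apart, with a log2 fold change against SCR of -1.94 ± 0.11 (SE; edgeR adjusted p = 1.11e-08) in shEya3_KD1 and of 0.52 ± 0.11 (edgeR adjusted p = 0.00188) in shEya3_KD2. Its fall in shEya3_KD1, 3.83-fold, was thus larger than its rise of 1.43-fold in shEya3_KD2.

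Ifit1, which recognises RNA lacking the methylated cap of the host, behaved the other way round. It was at 11.5, 15.2 and 12.8 CPM in shEya3_KD1 and 94.3, 132 and 96.5 CPM in shEya3_KD2, against 17.0, 14.6 and 16.0 CPM in SCR. The shEya3_KD2 libraries were far above the other 2 groups, which overlapped, and the log2 fold change was 2.76 ± 0.14 (SE; edgeR adjusted p = 2.88e-08) in shEya3_KD2 minus SCR. In shEya3_KD1 minus SCR it was -0.27 ± 0.14 (edgeR adjusted p = 0.14). That value passed the threshold without shEya3_KD2 replicate 2 (adjusted p = 0.0180), without shEya3_KD1 replicate 2 (0.0451) and with only the groups compared (0.0340).

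Ifit2, an RNA-binding partner of Ifit1 and Ifit3, was the only one of the 40 genes that rose in both hairpin groups. It had 34.8, 35.2 and 32.5 CPM in shEya3_KD1 and 55.3, 69.7 and 51.1 CPM in shEya3_KD2, against 29.2, 25.6 and 28.5 CPM in SCR. The groups did not overlap, and the log2 fold changes against SCR were 0.30 ± 0.10 (SE; edgeR adjusted p = 0.0228) in shEya3_KD1 and 1.08 ± 0.10 in shEya3_KD2. The rise in shEya3_KD1 rested on few libraries: the adjusted p was 0.0616 without shEya3_KD1 replicate 1, 0.0821 without shEya3_KD1 replicate 2, 0.113 without SCR replicate 2 and 0.0513 without SCR replicate 3.

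Ifit3 and its near copy Ifit3b gave among the widest spans of the class. Ifit3b was at 1.02, 1.19 and 0.95 CPM in shEya3_KD1 and 16.7, 29.6 and 16.9 CPM in shEya3_KD2, against 2.04, 2.40 and 2.43 CPM in SCR, and Ifit3 was at 1.92, 1.71 and 1.90 CPM in shEya3_KD1 and 24.8, 42.0 and 23.5 CPM in shEya3_KD2, against 2.95, 2.89 and 3.66 CPM in SCR. The log2 fold change of Ifit3b between the hairpins was 4.29 ± 0.26 (SE; edgeR adjusted p = 1.67e-07), and that of Ifit3 was 4.02 ± 0.25. Their falls in shEya3_KD1 were less secure. The log2 fold change of Ifit3 was -0.77 ± 0.28 (edgeR adjusted p = 0.0434), and leaving out any of the shEya3_KD1 or SCR libraries in turn moved the edgeR adjusted p to between 0.0536 and 0.117. That of Ifit3b was -1.10 ± 0.31 (edgeR adjusted p = 0.0116), and the adjusted p was 0.0573 without shEya3_KD1 replicate 1. In the annotation 61.8% of the 31-base words of Ifit3 also occur in Ifit3b, so reads could be split between them. With the 2 genes summed, the log2 fold change was -0.91 in shEya3_KD1 minus SCR and 3.23 in shEya3_KD2 minus SCR.

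Ifitm2, a close relative of Ifitm3, was at 36.2, 42.7 and 35.4 CPM in shEya3_KD1 and 33.7, 35.9 and 33.4 CPM in shEya3_KD2, against 37.5, 33.6 and 35.9 CPM in SCR. Its groups overlapped in all 3 comparisons, with log2 fold changes of 0.10 ± 0.08 (SE; edgeR adjusted p = 0.334), -0.06 ± 0.08 (adjusted p = 0.605) and, between the hairpins, -0.15 ± 0.08 (adjusted p = 0.132). Of its 31-base words 55.5% occur in other annotated genes, which leaves its level uncertain.

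The oligoadenylate synthetases sense double-stranded RNA and make the short adenylate chains that switch on the nuclease RNase L. All 6 genes of the family fell in shEya3_KD1 against SCR and all 6 rose in shEya3_KD2 against SCR. The median log2 fold changes were -1.56, 1.42 and, between the hairpins, 3.31. Oas3, the member that responds to long RNA, was at 8.29, 7.61 and 6.69 CPM in shEya3_KD1 and 116, 244 and 116 CPM in shEya3_KD2, against 36.5, 50.8 and 41.9 CPM in SCR. The groups were well apart, but shEya3_KD2 replicate 2 was 2.11 times the mean of the other 2 libraries of its group. The log2 fold change in shEya3_KD2 minus SCR was 1.88 ± 0.31 (SE; edgeR adjusted p = 0.0017) with that library and 1.43 without it, and in shEya3_KD1 minus SCR it was -2.51 ± 0.34 (edgeR adjusted p = 0.000453).

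Oas2 had the widest fall of the 40 genes in shEya3_KD1. It was at 5.62, 4.52 and 4.61 CPM in shEya3_KD1 and 73.4, 150 and 85.4 CPM in shEya3_KD2, against 44.4, 63.8 and 49.3 CPM in SCR. The log2 fold change in shEya3_KD1 minus SCR was -3.42 ± 0.32 (SE; edgeR adjusted p = 3.17e-05), a fall of 10.7-fold. Its rise in shEya3_KD2 was smaller and less secure, at 0.97 ± 0.26 (edgeR adjusted p = 0.018). That rise missed the threshold without SCR replicate 1 (adjusted p = 0.0641), without SCR replicate 3 (0.0603) and with no filter on low counts (0.0612). Without shEya3_KD2 replicate 2 the log2 fold change was 0.60 (edgeR adjusted p = 0.00478).

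Oasl1, a family member that lacks synthetase activity, and Oasl2, which has a ubiquitin-like tail as Oasl1 does, had the highest mean CPM of the family over all 9 libraries. Oasl1 was at 53.6, 55.2 and 54.6 CPM in shEya3_KD1 and 349, 391 and 335 CPM in shEya3_KD2, against 139, 129 and 142 CPM in SCR, with narrow groups and log2 fold changes of -1.33 ± 0.07 and 1.39 ± 0.07 (SE; edgeR adjusted p = 6.78e-10 and 1.54e-09). Oasl2 was at 22.4, 23.0 and 23.6 CPM in shEya3_KD1 and 218, 391 and 222 CPM in shEya3_KD2, against 45.0, 56.5 and 53.2 CPM in SCR. The log2 fold changes of Oasl2 were -1.17 ± 0.22 in shEya3_KD1 and 2.42 ± 0.22 in shEya3_KD2 (SE; edgeR adjusted p = 0.0018 and 2.49e-05), and in shEya3_KD2 replicate 2 its level by CPM reached that of Oasl1.

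Oas1a, a synthetase, was at 14.7, 16.5 and 14.8 CPM in shEya3_KD1 and 69.5, 97.9 and 77.8 CPM in shEya3_KD2, against 44.0, 45.0 and 45.0 CPM in SCR, with no overlap of groups. It shares 68.7% of its 31-base words with Oas1g, and the 2 summed gave log2 fold changes of -1.53 in shEya3_KD1 minus SCR and 0.91 in shEya3_KD2 minus SCR, against -1.54 and 0.87 for Oas1a alone. Oas1b, the flavivirus resistance gene of mice, which the annotation lists as a polymorphic pseudogene, had 1.40 to 1.59 CPM in shEya3_KD1 and 9.26 to 18.1 CPM in shEya3_KD2, against 4.16 to 4.94 CPM in SCR, and was also called in both directions.

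The other antiviral effectors act on nucleotides, membranes or viral particles. Of these 10 genes, 8 fell in shEya3_KD1 against SCR and 10 rose in shEya3_KD2 against SCR, with median log2 fold changes of -1.21 and 2.04. The GTPases Mx1 and Mx2, which trap viral nucleoproteins, had the widest differences between the hairpins. Mx1 was at 0.30, 0.30 and 0.20 CPM in shEya3_KD1 and 5.69, 11.3 and 7.06 CPM in shEya3_KD2, against 0.79, 0.96 and 0.91 CPM in SCR, and its log2 fold change between the hairpins was 4.84 ± 0.31 (SE; edgeR adjusted p = 3.64e-08), or 28.6-fold. Mx2, annotated as a polymorphic pseudogene, was at 0.67, 0.87 and 0.86 CPM in shEya3_KD1 and 16.0, 30.0 and 18.2 CPM in shEya3_KD2, against 1.88, 2.48 and 1.95 CPM in SCR. Both are low genes, and without shEya3_KD2 replicate 2 their log2 fold changes between the hairpins were 4.53 and 4.41.

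Rsad2 (viperin) makes a chain-terminating nucleotide from CTP, and Cmpk2, its neighbour on chromosome 12, is a mitochondrial nucleotide kinase. Rsad2 was at 8.17, 7.63 and 8.27 CPM in shEya3_KD1 and 108, 168 and 108 CPM in shEya3_KD2, against 25.4, 21.1 and 27.5 CPM in SCR. Cmpk2 was at 2.25, 2.57 and 2.31 CPM in shEya3_KD1 and 42.0, 69.6 and 43.5 CPM in shEya3_KD2, against 8.02, 10.0 and 9.55 CPM in SCR. The pair moved alike, with log2 fold changes of -1.62 ± 0.18 and -1.95 ± 0.23 (SE) in shEya3_KD1 minus SCR and of 2.37 ± 0.17 and 2.48 ± 0.19 in shEya3_KD2 minus SCR, all called by edgeR.

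Bst2 (tetherin) holds budding virions at the cell surface, and Helz2 is a large helicase that also acts as a nuclear receptor coactivator. Bst2 was at 51.9, 57.6 and 54.1 CPM in shEya3_KD1 and 164, 236 and 176 CPM in shEya3_KD2, against 105, 108 and 99.5 CPM in SCR, a nearly even span of -0.94 ± 0.11 and 0.88 ± 0.11 on the log2 scale (SE; edgeR adjusted p = 1.32e-05 and 3.5e-05). Helz2 was at 71.5, 56.4 and 59.9 CPM in shEya3_KD1 and 299, 545 and 285 CPM in shEya3_KD2, against 108, 141 and 135 CPM in SCR. Its log2 fold changes were -1.03 ± 0.25 (edgeR adjusted p = 0.00968) and 1.56 ± 0.25 (adjusted p = 0.00138). Rtp4, a chaperone of membrane receptors in the Golgi, had 10.6 to 12.3 CPM in shEya3_KD1 and 89.6 to 118 CPM in shEya3_KD2, against 29.3 to 32.7 CPM in SCR, and 13.9% of its exonic bases overlap a predicted gene on the same strand.

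Of the remaining 3 genes of the class, Samd9l alone passed the test in shEya3_KD1 against SCR. Isg20, an exonuclease that degrades RNA, was at 35.3, 39.1 and 37.0 CPM in shEya3_KD1 and 53.8, 62.2 and 53.5 CPM in shEya3_KD2, against 36.0, 35.8 and 35.2 CPM in SCR. The shEya3_KD1 and SCR libraries overlapped (log2 fold change 0.06 ± 0.07, edgeR adjusted p = 0.543), while the shEya3_KD2 libraries were above both. Ddx60, a helicase linked to RNA sensing, was at 6.22, 5.34 and 6.02 CPM in shEya3_KD1 and 37.8, 60.9 and 38.1 CPM in shEya3_KD2, against 6.67, 7.71 and 8.10 CPM in SCR. Its shEya3_KD1 libraries were all below those of SCR, but the log2 fold change was -0.35 ± 0.20 (edgeR adjusted p = 0.166). The edgeR adjusted p became 0.00420 without shEya3_KD2 replicate 2 and 0.0122 with only the groups compared.
Samd9l, a restriction factor of poxviruses, was at 22.2, 25.4 and 25.5 CPM in shEya3_KD1 and 73.3, 113 and 86.7 CPM in shEya3_KD2, against 29.0, 36.3 and 33.5 CPM in SCR. Its fall in shEya3_KD1 of 0.43 ± 0.15 on the log2 scale (edgeR adjusted p = 0.0295) missed the threshold without shEya3_KD1 replicate 1 (0.122), shEya3_KD2 replicate 3 (0.0530), SCR replicate 2 (0.0836) or SCR replicate 3 (0.0630).

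Isg15 is a ubiquitin-like protein that is joined to target proteins by the activating enzyme Uba7, the conjugating enzyme Ube2l6 and, in mice, the ligase Herc6, and is removed by Usp18. Of the 9 genes of this class, 8 fell in shEya3_KD1 and 9 rose in shEya3_KD2 against SCR, with median log2 fold changes of -0.98 and 1.53. Isg15 was at 18.6, 22.1 and 20.4 CPM in shEya3_KD1 and 137, 195 and 148 CPM in shEya3_KD2, against 42.6, 38.0 and 42.5 CPM in SCR. Its groups were apart, and the log2 fold changes were -1.01 ± 0.12 (SE; edgeR adjusted p = 1.52e-05) and 1.96 ± 0.12 (adjusted p = 6.53e-08).

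The enzymes moved in the same directions over different ranges. Uba7 had 3.39 to 4.62 CPM in shEya3_KD1 and 21.0 to 36.2 CPM in shEya3_KD2, against 5.90 to 7.92 CPM in SCR. Ube2l6 had 14.4 to 16.5 CPM in shEya3_KD1 and 40.4 to 60.4 CPM in shEya3_KD2, against 24.2 to 24.7 CPM in SCR. Herc6 had 10.3 to 11.1 CPM in shEya3_KD1 and 24.6 to 43.3 CPM in shEya3_KD2, against 17.5 to 19.4 CPM in SCR, and shares 13.8% of its 31-base words with other annotated genes. In shEya3_KD2 minus SCR the log2 fold changes were 1.89 ± 0.21 for Uba7, 0.98 ± 0.12 for Ube2l6 and 0.71 ± 0.19 for Herc6 (SE).
Usp18, which also dampens signalling at the interferon receptor, had the widest difference between the hairpins in this class. It was at 8.49, 9.01 and 7.64 CPM in shEya3_KD1 and 78.1, 125 and 90.8 CPM in shEya3_KD2, against 18.6, 20.9 and 20.1 CPM in SCR, and the log2 fold change between the hairpins was 3.54 ± 0.16 (SE; edgeR adjusted p = 1.39e-08).

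Trim25 is the ubiquitin ligase that modifies RIG-I, Trim21 is a cytosolic antibody receptor, and Trim30a is a rodent Trim protein that restrains innate signalling. Trim25 was at 65.1, 67.1 and 60.9 CPM in shEya3_KD1 and 247, 368 and 247 CPM in shEya3_KD2, against 121, 129 and 130 CPM in SCR, with log2 fold changes of -0.98 ± 0.13 and 1.18 ± 0.13 (SE; edgeR adjusted p = 6.4e-05 and 2.27e-05). Trim30a was at 25.4, 24.7 and 25.7 CPM in shEya3_KD1 and 127, 202 and 143 CPM in shEya3_KD2, against 54.4, 55.9 and 52.9 CPM in SCR, and shares 8.53% of its 31-base words with Trim30d. Trim21 had 8.27 to 8.71 CPM in shEya3_KD1 and 36.9 to 53.5 CPM in shEya3_KD2, against 20.5 to 21.7 CPM in SCR. In all 3 genes no library of one group reached the range of another.

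Dtx3l is the ubiquitin ligase that pairs with Parp9, and the genes lie side by side on chromosome 16, where 8.0% of the exonic bases of Dtx3l overlap Parp9 on the opposite strand. Dtx3l was at 41.5, 39.6 and 35.9 CPM in shEya3_KD1 and 127, 193 and 119 CPM in shEya3_KD2, against 38.4, 41.6 and 39.5 CPM in SCR. The shEya3_KD1 and SCR libraries overlapped (log2 fold change -0.03 ± 0.16, edgeR adjusted p = 0.894), while Parp9 had 28.9, 29.5 and 26.2 CPM in shEya3_KD1 and 115, 164 and 128 CPM in shEya3_KD2, against 42.1, 43.2 and 44.7 CPM in SCR. Parp9 thus fell in shEya3_KD1 by 0.62 ± 0.11 on the log2 scale (edgeR adjusted p = 0.000282) where its partner did not pass the test, and whether the 2 genes differed in this response was not tested. In shEya3_KD2 minus SCR, both rose, by 1.87 ± 0.16 for Dtx3l and 1.65 ± 0.11 for Parp9 on the log2 scale. Whether counting used strand is not given in the sources used here, so reads of the overlap may have gone to either gene.

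The Parp proteins of this list belong to the ADP-ribosyltransferase family, and all 4 genes fell in shEya3_KD1 and rose in shEya3_KD2 against SCR. Parp14, a large transferase also located in the Dtx3l region, moved most. It was at 10.0, 9.90 and 8.73 CPM in shEya3_KD1 and 145, 281 and 133 CPM in shEya3_KD2, against 29.0, 36.4 and 36.4 CPM in SCR. Its log2 fold changes were -1.83 ± 0.30 (SE; edgeR adjusted p = 0.00115) and 2.46 ± 0.28 (adjusted p = 0.000202), the second being 2.04 without shEya3_KD2 replicate 2. Parp12, which is known to act against alphaviruses, was at 32.3, 33.3 and 30.1 CPM in shEya3_KD1 and 105, 164 and 116 CPM in shEya3_KD2, against 45.5, 49.0 and 47.2 CPM in SCR. Parp10 had 19.5 to 23.2 CPM in shEya3_KD1 and 64.1 to 93.4 CPM in shEya3_KD2, against 36.2 to 40.7 CPM in SCR, and 4.80% of its exonic bases overlap Plec on the same strand.

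The other interferon-induced proteins were 5 genes that all fell in shEya3_KD1 and all rose in shEya3_KD2 against SCR, with median log2 fold changes of -1.27 and 0.81. Lgals3bp, a secreted glycoprotein that binds galectins, was at 66.0, 59.7 and 53.5 CPM in shEya3_KD1 and 221, 312 and 224 CPM in shEya3_KD2, against 143, 149 and 139 CPM in SCR (log2 fold changes -1.27 ± 0.12 and 0.81 ± 0.12, SE; edgeR adjusted p = 2.83e-06 and 0.000177). Ifi27, a small membrane protein of mitochondria and the nuclear envelope, was at 72.6, 83.0 and 73.3 CPM in shEya3_KD1 and 183, 177 and 186 CPM in shEya3_KD2, against 138, 140 and 136 CPM in SCR. Its libraries were tight within each group, with log2 fold changes of -0.85 ± 0.07 and 0.40 ± 0.07 (edgeR adjusted p = 4.72e-08 and 0.000171).

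Xaf1, which binds the apoptosis inhibitor XIAP, was at 7.97, 8.66 and 7.84 CPM in shEya3_KD1 and 65.9, 102 and 71.3 CPM in shEya3_KD2, against 24.5, 26.0 and 23.9 CPM in SCR. It had the widest difference between the hairpins in its class, 3.28 ± 0.15 on the log2 scale (SE; edgeR adjusted p = 6.09e-09). Ifi44 had 13.4 to 15.9 CPM in shEya3_KD1 and 96.7 to 184 CPM in shEya3_KD2, against 26.3 to 26.8 CPM in SCR, and its fall (edgeR adjusted p = 0.013) missed the threshold with no filter on low counts (adjusted p = 0.0610). Ifi35, a leucine zipper protein that interacts with Nmi, had 8.12 to 9.55 CPM in shEya3_KD1 and 36.9 to 47.7 CPM in shEya3_KD2, against 23.9 to 25.2 CPM in SCR. For both genes the 3 groups were apart.

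**Figure D2:**
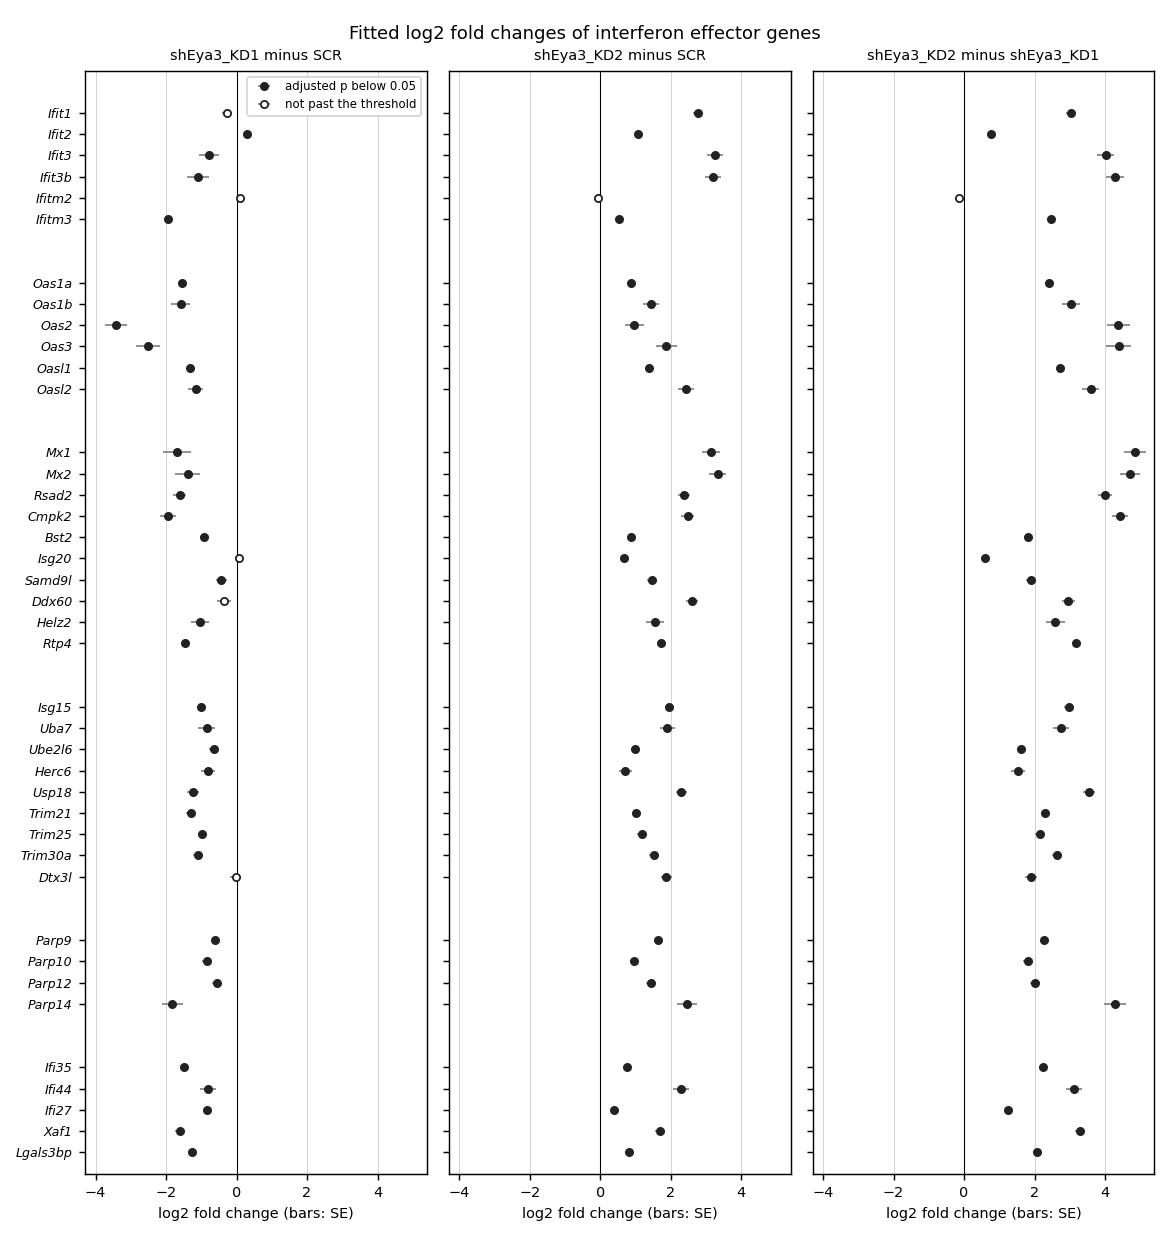
Fitted log2 fold changes with their SE for the 40 genes tested, in the order of role and with a panel for each comparison; open circles did not pass an adjusted p of 0.05. The middle panel lies right of 0 for all but Ifitm2, the left panel lies left of 0 for most, and Oas2 is the farthest left at -3.42.

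Per kilobase of exon, which allows genes to be compared in level, Ifitm3 was the most abundant gene in every group, at 121 CPM per kilobase in shEya3_KD1 and 662 in shEya3_KD2, against 462 in SCR. Bst2 had the next highest mean in every group, at 60.4 ± 3.2 CPM per kilobase in shEya3_KD1 and 213 ± 43 in shEya3_KD2, against 115 ± 4.8 in SCR (SD, n = 3). Its lead was within the spread over Ifitm2 in shEya3_KD1 (58.1 ± 6.1) and over Isg15 in shEya3_KD2 (212 ± 41). Of the 40 genes tested, Mx1 was lowest in every group, at 0.0709 CPM per kilobase in shEya3_KD1 and 2.12 in shEya3_KD2, against 0.235 in SCR. Ifitm2, Isg15, Oasl1 and Lgals3bp, at 54.4 ± 3.0, 54.3 ± 3.5, 52.5 ± 2.5 and 50.5 ± 1.7 CPM per kilobase in SCR (SD, n = 3), did not differ from each other beyond their spread, while Ifi27 above them and Oas1a below them did. The order changed with the hairpin: Ifit1 was in place 21 of 40 in shEya3_KD1 and 12 in shEya3_KD2, against 26 in SCR. Oas2 was in place 30 in shEya3_KD1 and 23 in shEya3_KD2, against 16 in SCR. Ifit2 was in place 10 in shEya3_KD1 and 31 in shEya3_KD2, against 22 in SCR.

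**Figure D3:**
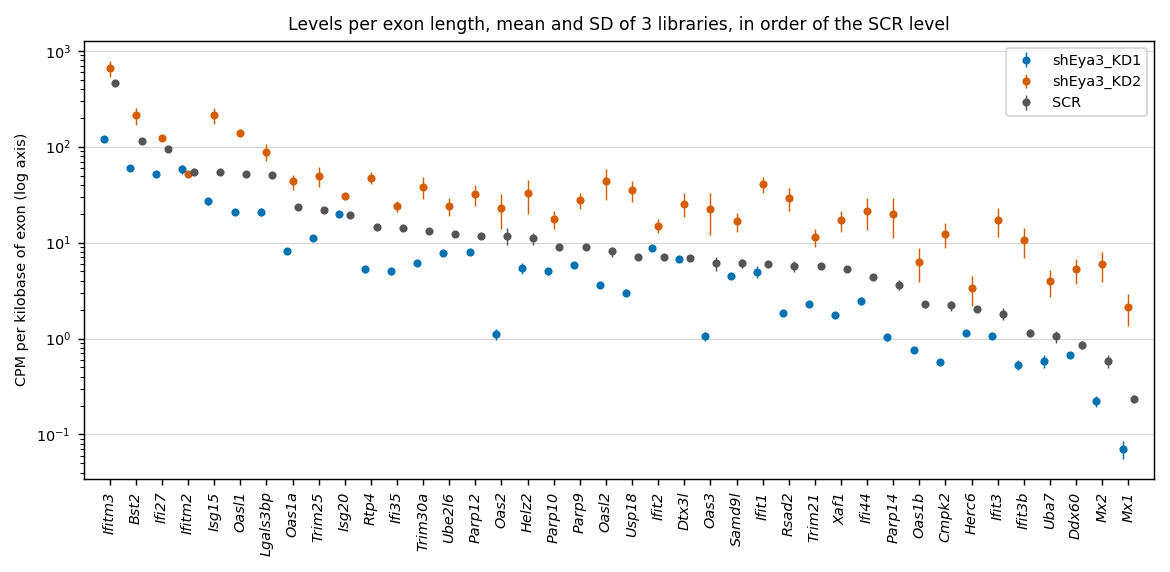
Mean CPM per kilobase of exon with the SD of 3 libraries, on a log axis, for shEya3_KD1, shEya3_KD2 and SCR, with the genes in order of their SCR level. Ifitm3 is highest and Mx1 lowest of the 40 genes shown, and Ifitm2 is the gene whose 3 points lie together.

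The libraries of shEya3_KD2 differed more among themselves in these genes than those of the other groups. The median SD of log2(CPM + 0.5) was 0.107 in shEya3_KD1 and 0.336 in shEya3_KD2, against 0.0834 in SCR, whereas over all genes tested it was 0.105, 0.115 and 0.0808. The SD was larger in shEya3_KD2 than in SCR in 39 of 40 genes (66.3% of all genes) and larger than in shEya3_KD1 in 38 of 40 (56.1% of all genes). With 3 libraries in a group, the spread was not tested.

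Replicate 2 lay apart from the other 2. It was the highest shEya3_KD2 library in 39 of 40 genes, where it was the highest in 42.1% of all genes tested, and the exception was Ifi27. The ratio of replicate 2 to the mean of replicates 1 and 3 had a median of 1.48 and ran from 0.960 for Ifi27 to 2.11 for Oas3, while the ratio of replicate 3 to replicate 1 had a median of 1.03 and ran from 0.918 to 1.24. On the log2 scale the difference of replicate 2 from the other 2 was at least 0.5 in 26 of 40 genes, against 2.82% of all genes tested. The median shift was 0.57 in the effector genes and 0.014 over all genes. Each of the 3 shEya3_KD2 libraries lay above every SCR library for the 39 genes that rose, a separation not counted over all genes.

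In the libraries of SCR and shEya3_KD1 replicate 2 was the highest in 24 of 40 genes each, against 28.6% of all genes in shEya3_KD1 and 36.2% in SCR. The shift of shEya3_KD2 replicate 2 was larger for longer genes, with a Spearman correlation with exon length of 0.638 over the 40 effector genes and 0.392 over the 15914 genes tested, which share the same libraries. Split at 3561 bases, the median exon length of all genes tested, the 17 shorter effector genes had a median shift of 0.454 and the 23 longer ones 0.675. All genes of the same classes had -0.0621 and 0.0807. The part of length and depth in the shift was not tested.

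**Figure D4:**
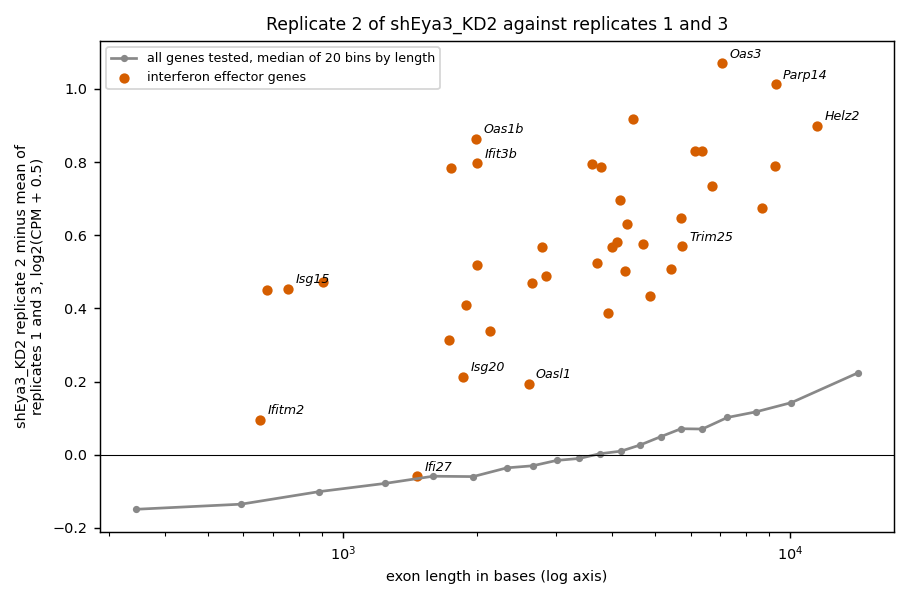
The log2(CPM + 0.5) of shEya3_KD2 replicate 2 minus the mean of replicates 1 and 3 (y axis) against exon length in bases (x axis, log scale), for the 40 effector genes and, as a line, the median of all genes in 20 length bins. The effector genes lie above the line except Ifi27, which is on it, and Oas3 and Parp14 are highest.

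Upstream of the effectors, Ifnb1 (interferon beta) was the only one of 21 interferon ligands with enough counts to be tested. It had 0, 1 and 1 reads in shEya3_KD1 and 17, 9 and 20 reads in shEya3_KD2, against 0, 5 and 2 reads in SCR. Every shEya3_KD2 library was above every library of the other groups, and the log2 fold change was 2.89 ± 0.57 (SE; edgeR adjusted p = 0.000774) against SCR, with the size uncertain at such counts. In shEya3_KD1 minus SCR it was -1.38 ± 1.10 (edgeR adjusted p = 0.321). Only the shEya3_KD2 libraries carried Ifnb1 past the count filter, so the p-value of its rise there is not separate support for that rise. By CPM, Ifnb1 was at 0.332 in replicate 2 of shEya3_KD2, beside 0.332 and 0.472 in replicates 1 and 3. The value of replicate 2 rests on 9 reads in the shallowest library. That is too few to show a shift of the size seen in the effector genes, and a relation between them was not tested.

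Of 12 genes of the interferon receptors and their signalling, 11 were tested: none rose and 7 fell in shEya3_KD1 against SCR, and 5 rose and 1 fell in shEya3_KD2 against SCR. The log2 fold changes of Ifnar1 and Ifnar2 were small. Ifnar1 was at 42.2, 41.7 and 40.1 CPM in shEya3_KD1 and 50.8, 51.4 and 49.7 CPM in shEya3_KD2, against 45.2, 47.6 and 46.1 CPM in SCR, and Ifnar2 was at 20.5, 19.3 and 19.9 CPM in shEya3_KD1 and 24.6, 24.0 and 23.4 CPM in shEya3_KD2, against 19.7, 19.0 and 19.9 CPM in SCR. Ifnar1 fell by 0.16 ± 0.06 in shEya3_KD1 (edgeR adjusted p = 0.0343), and Ifnar2 rose by 0.30 ± 0.07 in shEya3_KD2 (adjusted p = 0.00187), both on the log2 scale. The gene that fell in shEya3_KD2 was Ifngr2, a chain of the interferon gamma receptor, at 21.5, 19.9 and 17.6 CPM in shEya3_KD1 and 39.5, 37.1 and 37.5 CPM in shEya3_KD2, against 46.0, 44.2 and 44.5 CPM in SCR.

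Stat2 and Irf9, of the transcription complex, had log2 fold changes further from 0 than Ifnar1 and Ifnar2. Stat2 was at 22.6, 21.3 and 19.2 CPM in shEya3_KD1 and 113, 184 and 111 CPM in shEya3_KD2, against 38.9, 47.1 and 40.8 CPM in SCR. Irf9 was at 21.4, 20.1 and 19.2 CPM in shEya3_KD1 and 92.2, 113 and 96.0 CPM in shEya3_KD2, against 37.8, 41.7 and 39.7 CPM in SCR. Both fell in shEya3_KD1 (log2 fold changes -1.01 ± 0.19 and -0.97 ± 0.08) and rose in shEya3_KD2 (1.68 ± 0.18 and 1.34 ± 0.08) against SCR, with replicate 2 the highest shEya3_KD2 library in each.

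Among the nucleic acid sensors and interferon regulatory factors, 16 genes were tested: 10 fell and none rose in shEya3_KD1 against SCR (median log2 fold change -0.41), and 13 rose and none fell in shEya3_KD2 against SCR (median 1.15). Irf7, the regulator that amplifies interferon production, was at 15.7, 16.2 and 13.4 CPM in shEya3_KD1 and 152, 255 and 163 CPM in shEya3_KD2, against 48.6, 52.8 and 51.1 CPM in SCR. Ddx58 was at 33.4, 29.9 and 29.5 CPM in shEya3_KD1 and 170, 272 and 175 CPM in shEya3_KD2, against 72.3, 89.7 and 85.4 CPM in SCR. Ifih1 was at 16.7, 17.9 and 17.2 CPM in shEya3_KD1 and 73.1, 112 and 69.8 CPM in shEya3_KD2, against 27.4, 26.6 and 27.5 CPM in SCR. All 3 fell in shEya3_KD1 and rose in shEya3_KD2, with log2 fold changes against SCR of -1.75 ± 0.18 and 1.90 ± 0.18 for Irf7, of -1.41 ± 0.17 and 1.32 ± 0.17 for Ddx58 and of -0.65 ± 0.16 and 1.64 ± 0.15 for Ifih1 (SE). Of 10 tested genes that restrain the pathway, 1 rose and 3 fell in shEya3_KD1, and 3 rose and 2 fell in shEya3_KD2, against SCR. Over all genes tested, 24.1% rose and 26.2% fell in shEya3_KD1, and 23.0% rose and 22.3% fell in shEya3_KD2. Of 13 tested near copies, Ifit3 and Ifit3b among them, 3 rose and 6 fell in shEya3_KD1 and 9 rose in shEya3_KD2 against SCR. Of the 3 that rose in shEya3_KD1, 2 did so at 2-fold or more. Between the hairpins, 9 near copies were higher and 3 lower in shEya3_KD2 than in shEya3_KD1.

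**Figure D5:**
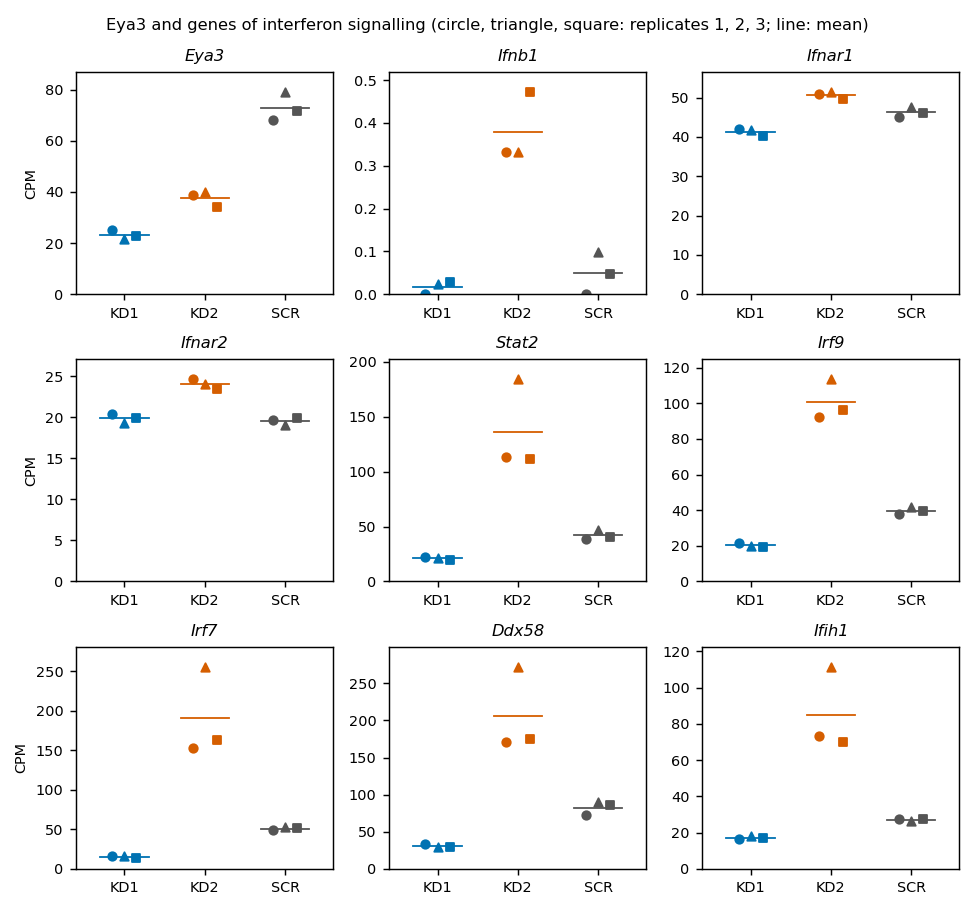
CPM of Eya3 and of 8 genes of interferon production and signalling in shEya3_KD1 (KD1), shEya3_KD2 (KD2) and SCR; circles, triangles and squares are replicates 1, 2 and 3, and the line is the mean. Eya3 is below SCR in both hairpin groups, Ifnar1 and Ifnar2 differ little, and Stat2, Irf9, Irf7, Ddx58 and Ifih1 are highest in shEya3_KD2.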

How the data were processed

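Total RNA of cultured 66cl4 cells was turned into mRNA libraries (NuGEN Universal Plus), per the labels. The submitters' processing notes list STAR, FastQC and MultiQC with the build mm10, and give no versions. Neither the counter nor its use of strand is given in those notes. The authors deposited raw whole-number counts per gene symbol for 9 libraries, and the counts were used unchanged. Groups came from sample titles and each column from the library name in its description. Totals are given with the results, and their size limits low genes such as Mx1 and Ifnb1.

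A quasi-likelihood fit of edgeR 4.0.16 in R 4.3.3 (robust estimation, TMM scaling, filterByExpr) used all 9 libraries with the group as its term, and p-values of the 3 comparisons were adjusted over 15914 genes. The groups shared a common estimate of the spread of each gene. The SE and p-value of a comparison thus also carry the spread of the group left out of it. The SE was derived from the fold change and its F statistic. An exact permutation test of 3 against 3 libraries cannot go below 0.1. CPM used TMM-scaled totals, and spread was taken on log2(CPM + 0.5). Coordinates, exon lengths, overlaps and shared 31-base words came from GENCODE M21. The fit was also run on simulated counts, for shEya3_KD2 minus SCR only. The simulation gave each gene the same spread in all groups, so it cannot speak to the wider spread within shEya3_KD2.

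Alternatives were RLE scaling, DESeq2 1.42.0, limma-voom (limma 3.58.1), other filters, fits of the compared groups alone, a replicate block, a minimum fold of 1.5, each library left out, another log offset (0.1) and a longer motif. Summing near copies was added after seeing the data. The genes, classes, pathway lists, marker lists and motif were chosen with earlier results of these data known. Full values are given per class for the 2 genes of highest mean CPM, the gene with the widest difference between the hairpins, and every gene that was not tested, not called or called against the majority. Others may be named with values where they reach 1 CPM in the mean of a group. The values of 1 gene of the lists are not reported here.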

Additional observations from a re-analysis of the deposited data

How the results depend on the processing

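Over all genes tested, replicate numbers gave no clear pairing of the libraries. Deviations from the group means correlated at -0.0945 to 0.173 for the same number (9 pairs) and at -0.211 to 0.146 for different numbers (18 pairs). The highest value, 0.173, joined replicate 2 of shEya3_KD2 and of SCR. Pairing was not examined in the effector genes alone, where replicate 2 was the highest library in most genes of every group. With the replicate block, 35 genes were called in shEya3_KD1 minus SCR, 39 in shEya3_KD2 minus SCR and 39 between the hairpins, the same numbers as without it. RLE scaling, DESeq2, limma-voom, either filter and fits of the compared groups alone gave 34 to 37, 38 to 39 and 39 calls. A minimum fold of 1.5 (glmTreat) tests a stricter question, and called 23 genes in shEya3_KD1 minus SCR, of which 0 rose. In shEya3_KD2 minus SCR it lost 7 calls (Herc6, Ifi27, Ifi35, Ifitm3, Isg20, Lgals3bp and Oas2), and between the hairpins 2 (Ifit2 and Isg20). Leaving out each library in turn gave 31 to 37 genes called, 0 to 1 risen and 31 to 36 fallen in shEya3_KD1 minus SCR, and 38 to 39 risen in shEya3_KD2 minus SCR. Signs turned only for Ifitm2 (range -0.0016 to 0.14, below 0 without shEya3_KD1 replicate 2) and Dtx3l (range -0.076 to 0.018, above 0 without shEya3_KD1 replicate 3), both in shEya3_KD1 minus SCR, where neither was called. Ifit1 and Ddx60 in shEya3_KD1 minus SCR also passed with no filter (edgeR adjusted p = 0.00954 and 0.00369) and with only the groups compared (0.0340 and 0.0122), and Ifit3 missed with limma-voom (0.0704). The causes of these changes were not tested. With log2(CPM + 0.1) the median SD was 0.109 in shEya3_KD1 and 0.337 in shEya3_KD2, against 0.0849 in SCR. Depth limits Ifnb1 and Ifitm1, which rest on a few reads per library.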
